A study of Canis lupus familiaris with 30 samples.

Results

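The change over the first 6 weeks of CHOP was measured in the lymph nodes of the 5 dogs whose lymphoma carried no immunophenotype. They were chosen by the immunophenotype label, which reads Unknown for 5 of the 15 dogs and 10 of the 30 libraries. The study gave a technical error as the reason that these dogs were not typed. RNA from fine needle aspirates of enlarged nodes was sequenced before treatment (initial timepoint) and 6 weeks into CHOP (six-week timepoint), so that each dog gave 1 library per timepoint. The other 20 libraries came from 7 dogs labelled B-cell and 3 labelled T-cell. CHOP combines cyclophosphamide, doxorubicin (hydroxydaunorubicin), vincristine (Oncovin) and prednisone, and all 15 dogs received it. No untreated group is part of the design, and a prednisone injection before enrolment was allowed, so the initial timepoint is not strictly free of glucocorticoid. The 5 dogs are named here by their sample numbers 024, 025, 026, 031_032 and 035. The samples titled 031A and 032B were taken as the pair of dog 031_032 because no other library of either number is in the series. Values per dog are given in that order throughout.

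CHOP acts on dividing cells: cyclophosphamide cross-links DNA, doxorubicin traps topoisomerase II on DNA, vincristine blocks the mitotic spindle, and prednisone kills lymphocytes through the glucocorticoid receptor. A node filled by lymphoma is mostly clonal tumor cells, with T cells, macrophages and stroma among them. Most canine lymphomas are of B-cell origin and fewer are of T-cell origin, and immunophenotyping by flow cytometry separates them.

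Total counts of the 10 libraries were 6609226 to 26543591. Dog 025 had the lowest of these totals, at 6 weeks. FPKM (fragments scaled by transcript length and by the depth of the library) is the value analysed here. In dogs 024 and 035 the deposited counts did not rank genes as the FPKM values did under the same gene IDs (Spearman correlation 0.0623 to 0.075), while in the other 3 dogs they did (0.816 to 0.873). The FPKM values of dogs 024 and 035 correlated at 0.819 to 0.877 with the FPKM of the 6 libraries of those 3 dogs, and their counts at 0.119 to 0.129 with the counts of the same 6 libraries, so the FPKM rows follow the gene IDs of the other dogs and the count rows of dogs 024 and 035 do not. Gene symbols were at hand for 3800 of the 13555 genes tested, and were those that the study's tables pair with Ensembl gene IDs.

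Before treatment, all 5 untyped nodes held high levels of the B-cell marker genes that could be named, PAX5, CD22 and POU2AF1. The mean level of 13 T-cell marker genes was low. The mean log2(FPKM+1) of the 3 B-cell genes was 5.73, 5.98, 5.54, 5.64 and 5.38 in the 5 dogs, against 4.40 to 6.42 in the 7 dogs labelled B-cell and 0.900, 2.03 and 5.88 in the 3 labelled T-cell. For the 13 T-cell genes it was 1.46, 1.60, 1.16, 1.69 and 0.90, against 1.03 to 5.67 in the B-cell and 2.35 to 5.82 in the T-cell labelled dogs. Not every T-cell gene was low. CD3D stood at 38, 22.5, 37.2, 28.8 and 14.8 FPKM, and CD3E at 69.4 FPKM in dog 031_032. PAX5, the transcription factor that keeps B cells committed, stood at 18.4, 38.5, 25.7, 24.1 and 22.3 FPKM. No B-cell marker was at 0 in any of the 10 libraries. The other 15 genes of the B-cell list, MS4A1, CD79A and CD79B among them, had no symbol and were not analysed here. These marker levels are a description and assign no immunophenotype to the dogs.

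**Figure D1:**
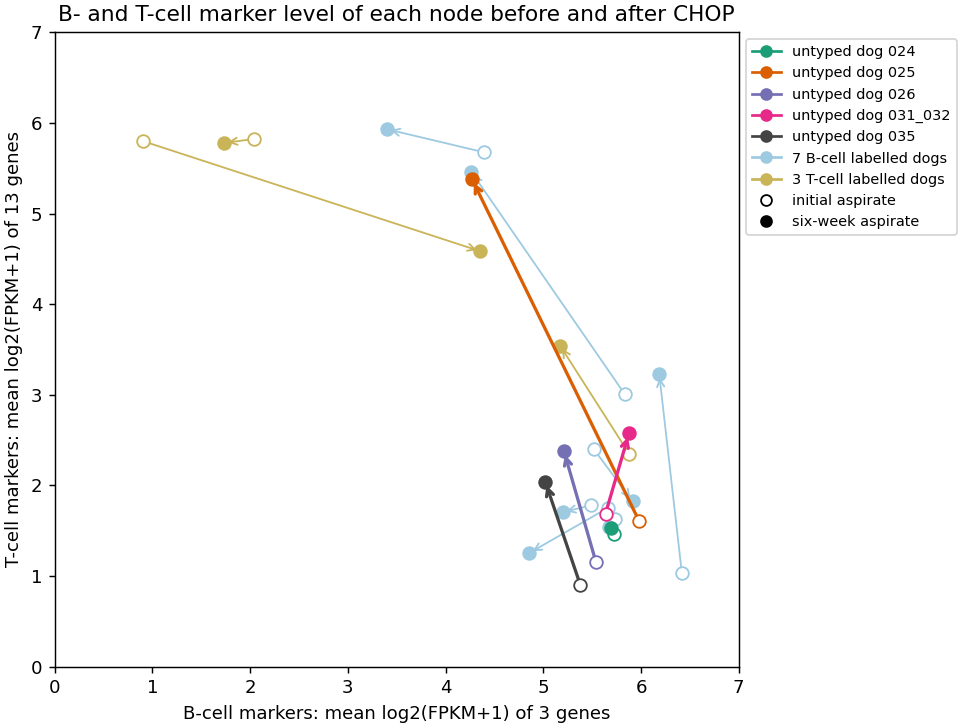
Mean log2(FPKM+1) of 3 B-cell marker genes (x axis) and 13 T-cell marker genes (y axis) in each library, with an arrow from the initial to the six-week aspirate of a dog. The 5 untyped dogs start at the lower right, and dog 025 moves farthest, to 4.27 on the B-cell and 5.38 on the T-cell axis.

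No gene passed the test between timepoints at an adjusted p under 0.05, which is 0% of 13555 (limma with the dog as a block, smallest adjusted p 0.462). At an unadjusted p under 0.05 there were 676 genes, a share of 4.99% that is close to the threshold itself. Of these, 583 were higher at 6 weeks (4.3% of the genes tested) and 93 were lower (0.686%). In all 5 dogs 765 genes were higher (5.64%) and 164 were lower (1.21%). The six-week libraries all lay above the initial libraries for 46 genes (0.339%) and all below for 5 (0.0369%). The median log2 change over all genes was 0.02. Quantile normalization left 574 genes at an unadjusted p under 0.05, of which 59.9% were higher, against 86.2% with the FPKM as deposited. edgeR on the deposited counts of dogs 025, 026 and 031_032 called 2 genes of 10720, neither with a symbol, and gave 658 at an unadjusted p under 0.05. As no gene passed with limma, the values below describe these 5 dogs.

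The filter asked for a mean FPKM above 1 over the 10 libraries, so a gene near 0 before treatment passed only if its six-week values were high. The initial mean was 1 FPKM or less for 934 of the 13555 genes, and for 272 of the 583 that were higher at an unadjusted p under 0.05. With the filter set on the other 20 libraries, an alternative chosen after seeing the data, 838 of 14577 genes were at an unadjusted p under 0.05, and 738 of these were higher.

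The named genes with the smallest p that were at least 1 log2 unit higher, and higher in each of the 5 dogs, were TNIK, IDO1, STK39, GIMAP4, GIMAP2, ABCB1, DBNDD2, CSTA, TNFSF8 and PRKCH. TNIK, a kinase that acts with TCF/LEF factors in Wnt signaling, stood at 1.26, 4.4, 1.01, 1.22 and 1.51 FPKM before treatment and at 22.2, 52, 11.4, 4.93 and 4.66 FPKM at 6 weeks. The initial and six-week values did not overlap, and the highest initial value (dog 025) lay just under the lowest six-week value (dog 035). Its log2 change was 2.37 ± 0.37 (SE; unadjusted p = 0.000285, limma), and it was 3.36, 3.30, 2.63, 1.42 and 1.17 in the single dogs. Dogs 024 and 025 had the largest changes.

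IDO1, the enzyme that breaks down tryptophan and restrains T cells, was at 0.316, 2.51, 0.366, 1.24 and 1.36 FPKM and then at 0.919, 16.4, 1.92, 4.16 and 10.2 FPKM. The sets overlapped, because the six-week value of dog 024 was below 3 of the initial values, but each dog was above its own start (log2 change 1.48 ± 0.29, SE). ABCB1, the P-glycoprotein pump that exports doxorubicin and vincristine, went from 1.3, 0.572, 0.459, 1.1 and 0.452 to 11, 6.23, 2.29, 2.26 and 1.16 FPKM. Dog 024 was highest at both timepoints, and the lowest six-week value, in dog 035, lay within the initial range. The initial mean was 0.776 FPKM, so ABCB1 passed the filter through its six-week values, which favors a positive sign. The log2 change of ABCB1 was 1.39 ± 0.31 (SE; unadjusted p = 0.00268, limma).

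GIMAP4 and GIMAP2, GTPases of lymphocyte survival, had log2 changes of 1.10 ± 0.24 and 1.22 ± 0.27 (SE). GIMAP4 was at 6.08, 19.998, 15.2, 17.6 and 6.55 FPKM before treatment and at 15.2, 74.9, 20.04, 27.6 and 19.6 FPKM at 6 weeks. STK39, a kinase that regulates ion cotransporters, had a log2 change of 1.26 ± 0.27 (SE), and was 1.55, 1.89, 0.09, 1.61 and 1.15 in the single dogs. For CSTA, an inhibitor of cysteine proteases, the change was 0.40, 3.92, 2.31, 1.39 and 1.23 in the 5 dogs, and dog 025 held 89.8 of a six-week mean of 20.9 FPKM. TNFSF8, the ligand of CD30, had a log2 change of 1.06 ± 0.29, PRKCH, a protein kinase C of the T-cell lineage and epithelia, of 1.38 ± 0.39, and DBNDD2 of 1.02 ± 0.24 (SE). Each of the 10 genes had an adjusted p of 0.870 (limma). In all 116 genes were at least 1 log2 unit higher and higher in all 5 dogs, 48 of them with a symbol.

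**Figure D2:**
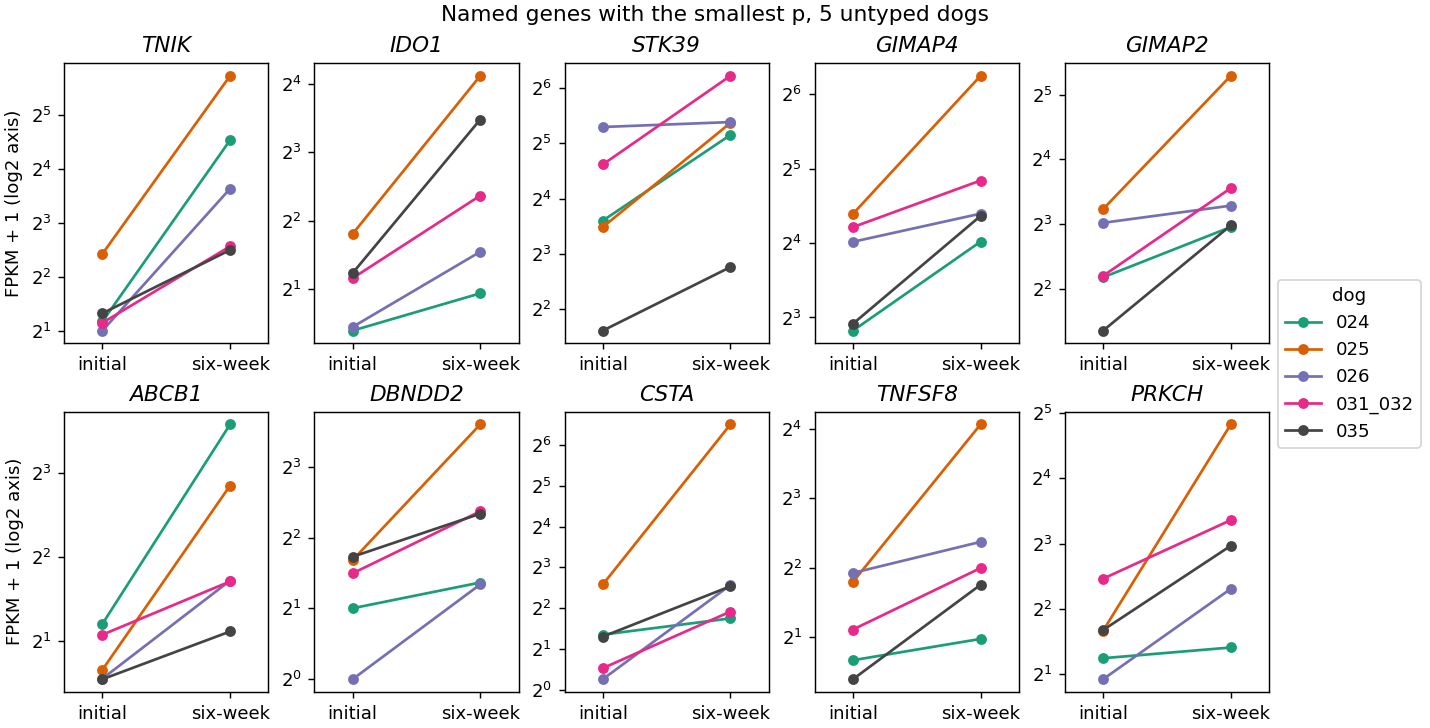
FPKM + 1 (log2 axis, a separate scale in each panel) of the 10 named genes with the smallest p at the initial and six-week timepoints, with 1 line per dog. Every line goes up, from 0.09 log2 units for STK39 in dog 026 to 3.92 for CSTA in dog 025.

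In the other direction 4 genes were at least 1 log2 unit lower and lower in all 5 dogs, and none of them had a symbol. MCF2L2, named here after its values were seen because it was the 1 gene with a symbol whose six-week libraries all lay below the initial ones, was at 60.1, 86.9, 63.3, 90.9 and 68.8 FPKM and then at 38.6, 15.4, 44.8, 49.6 and 50.2 FPKM. Its log2 change was -0.97 ± 0.30 (SE). Among the genes lying wholly above, 7 had a symbol: TNIK, ZSCAN18, MLLT3, GRAMD1B, F2R, PLCL1 and IL13RA2. F2R, the thrombin receptor, had a mean of 0.983 FPKM before treatment and 4.13 FPKM at 6 weeks, and MLLT3, a partner gene of leukemic KMT2A fusions, had 0.645 and 5.16 FPKM. Both initial means were below 1 FPKM, so F2R and MLLT3 passed the filter through their six-week values, which favors lying above.

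The 5 dogs differed in how far apart their libraries were. In dog 025, 4000 genes (29.5% of those tested) differed by at least 1 log2 unit between its libraries, against 1272 in dog 031_032, 497 in dog 024, 488 in dog 035 and 453 in dog 026. Across genes, the changes of 2 dogs correlated with Pearson coefficients of -0.127 to 0.298 over the 10 pairs of dogs, with a median of 0.06; genes are not independent, and all pairs share the tested gene set. Dogs 025 and 031_032 were the pair with the highest coefficient and dogs 024 and 031_032 the pair with the lowest. The six-week library of dog 025 also stood apart in depth, in having the highest FPKM sum of the 10, and in the number of genes above 1 FPKM (16699, against 12250 to 15058 in the other 4 six-week libraries). List medians are therefore given with and without this dog. The filter was applied again without it, so the tested members of a list can differ between these medians.

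T-cell genes were higher at 6 weeks, by little in dog 024 and by the most in dog 025. All 13 measured members of the T-cell list had a positive log2 change, and none passed after adjustment. At an unadjusted p under 0.05, 10 were higher (4.3% of all genes tested were). In all 5 dogs 8 were higher (5.64% of all genes tested). The median log2 change of the list was 1.43, beside 0.02 over all genes, and it was 0.09, 3.95, 1.20, 1.17 and 1.23 in the single dogs. Dog 024 thus differed little between timepoints, dogs 026, 031_032 and 035 were close to each other, and dog 025 lay far above. The mean log2(FPKM+1) of the 13 genes at 6 weeks was 1.53, 5.38, 2.38, 2.57 and 2.04, which is above the initial value in each dog, while the summed level was not. Summed over the list, the level was 57.6, 45.9, 51.7, 111 and 22.7 FPKM before treatment and 50.9, 714, 93.3, 93.4 and 54.5 FPKM at 6 weeks, so that the sum was lower at 6 weeks in dogs 024 and 031_032; before treatment 1 of the 13 genes was at 0 in dog 024 and 1 in dog 026. The initial mean was 1 FPKM or less for 8 of the 13 genes. These 8 passed the filter through their six-week values, which favors a positive sign. Most list members with a symbol are genes that the study singled out in these samples, so the list is not independent of them. In a bulk aspirate, fewer cells of a type and less RNA per cell cannot be told apart, and the same holds for more.

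IL7R, the receptor chain that keeps naive and memory T cells alive, was at 1.64, 2.36, 1.35, 0.958 and 0.424 FPKM before and 1.78, 109, 4.93, 6.62 and 5.44 FPKM after. It had a log2 change of 2.12 ± 0.62 (SE; unadjusted p = 0.0105, limma), and the six-week values overlapped the initial ones only through dog 024, where it differed by 0.07 on the log2 scale. ZAP70, TRAT1, ICOS, THEMIS, CD5, CD28, UBASH3A and LCK had log2 changes of 1.15 to 1.83, and each of the 13 genes had its largest change in dog 025.

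The CD3 chains form the signaling part of the T-cell receptor, and CD3E and CD3D are the members measured here. CD3E was at 7.29, 6.27, 2.35, 69.4 and 1.64 FPKM before treatment and at 9.2, 168, 14.3, 14.2 and 8.7 FPKM at 6 weeks, so it was higher in 4 dogs and lower in dog 031_032, which had started far above the others. CD3D was at 38, 22.5, 37.2, 28.8 and 14.8 FPKM and then at 28.1, 61.9, 39.7, 30.3 and 16.1 FPKM, with a log2 change of 0.25 ± 0.26 (SE). Before treatment CD3D thus stood above CD3E in every dog but 031_032 on the FPKM scale. Without dog 025 the T-cell list had 9 members past the filter, of which 7 were higher at an unadjusted p under 0.05 (2.77% of all genes in that fit) and 5 were higher in all 4 dogs (936 of 13270 genes were, 7.05%), and its median was 0.94. CD3D then had a log2 change of -0.04.

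Genes of cytotoxic T and NK cells had positive medians in every dog but 024. Of 9 measured genes, 7 were higher at an unadjusted p under 0.05 and 3 were higher in all 5 dogs. Over all genes tested these shares were 4.3% and 5.64%. The median log2 change was 1.08, with -0.01, 2.71, 0.62, 1.20 and 0.83 in the single dogs. KLRK1, the activating receptor NKG2D, was at 0.133, 0.383, 0.449, 1.41 and 1.31 FPKM and then at 0.467, 7.14, 0.532, 5.33 and 10.1 FPKM. GZMK, a granule protease, was at 1.33, 1.45, 0.671, 14.9 and 11.6 FPKM before treatment and at 1.21, 21.5, 1.89, 30.7 and 56.2 FPKM at 6 weeks, and was highest in dog 035 rather than in dog 025. CCL5, the chemokine that cytotoxic cells secrete, was at 3.08, 19.5, 3.15, 30.2 and 10.5 FPKM at 6 weeks, below its start in dog 035. The initial mean was 1 FPKM or less for 3 of the 9 genes, so that they passed the filter through their six-week values, which favors a positive sign. Without dog 025, 6 of 8 members were higher at an unadjusted p under 0.05, beside 2.77% of all genes in that fit, and the median was 0.69. Without dog 031_032, 3 members were, beside 3.11% of all genes in that fit.

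Macrophage and monocyte genes were higher by the most in dog 025. All 13 measured genes had a positive log2 change, 4 were higher at an unadjusted p under 0.05 and 4 in all 5 dogs. Over all genes tested the last 2 shares were 4.3% and 5.64%. For 6 of the 13 the initial mean was 1 FPKM or less, so that they passed the filter through their six-week values, which favors a positive sign. The median was 0.81 and the single dogs gave 0.08, 3.12, 0.00, 0.64 and 0.68. Without dog 025 the median was 0.29 over 10 genes. Of these, 3 were higher at an unadjusted p under 0.05, beside 2.77% of all genes in that fit. The summed level of the list was 15.8 to 47.0 FPKM before treatment and 50.1, 285, 14.3, 83.1 and 44.7 FPKM at 6 weeks, with 1 gene at 0 in both libraries of dog 026 and none in the other 8. MRC1, the mannose receptor of tissue macrophages, was at 1.6, 1.48, 0.79, 1.55 and 0.798 FPKM and then at 2.7, 36, 1.48, 6.89 and 4.19 FPKM. C1QB, a chain of complement C1q, was at 15.7, 71.2, 1.25, 29 and 11.1 FPKM at 6 weeks from 12, 6.46, 2.25, 18.2 and 6.03 FPKM, higher in 4 dogs and lower in dog 026. C1QA was higher in 2 dogs only, 025 and 031_032.

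The neutrophil list had the largest median of all lists in dog 025. S100A8, a calcium-binding protein of neutrophils and monocytes, was at 20.6, 3.02, 0.4999, 0.656 and 0.23 FPKM before treatment and 11.3, 145, 0.349, 2.71 and 2.03 FPKM at 6 weeks. CAMP, which encodes the antimicrobial peptide cathelicidin, was at 7.37, 102, 0.332, 0.26 and 2.1 FPKM at 6 weeks. The list of 4 tested genes had a median log2 change of 1.22, with -0.01, 4.32, 0.00, 0.15 and 0.95 in the single dogs and no member at an unadjusted p under 0.05. For 2 of the 4 the initial mean was 1 FPKM or less, which favors a positive sign. Without dog 025 2 genes passed the filter and the median was 0.49. Summed over 5 genes it was 1.499 to 27.1 FPKM before and 23.6, 287, 2.15, 4.93 and 6.17 FPKM after. The part of these blood and myeloid cells in the values of dog 025 was not tested.

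**Figure D3:**
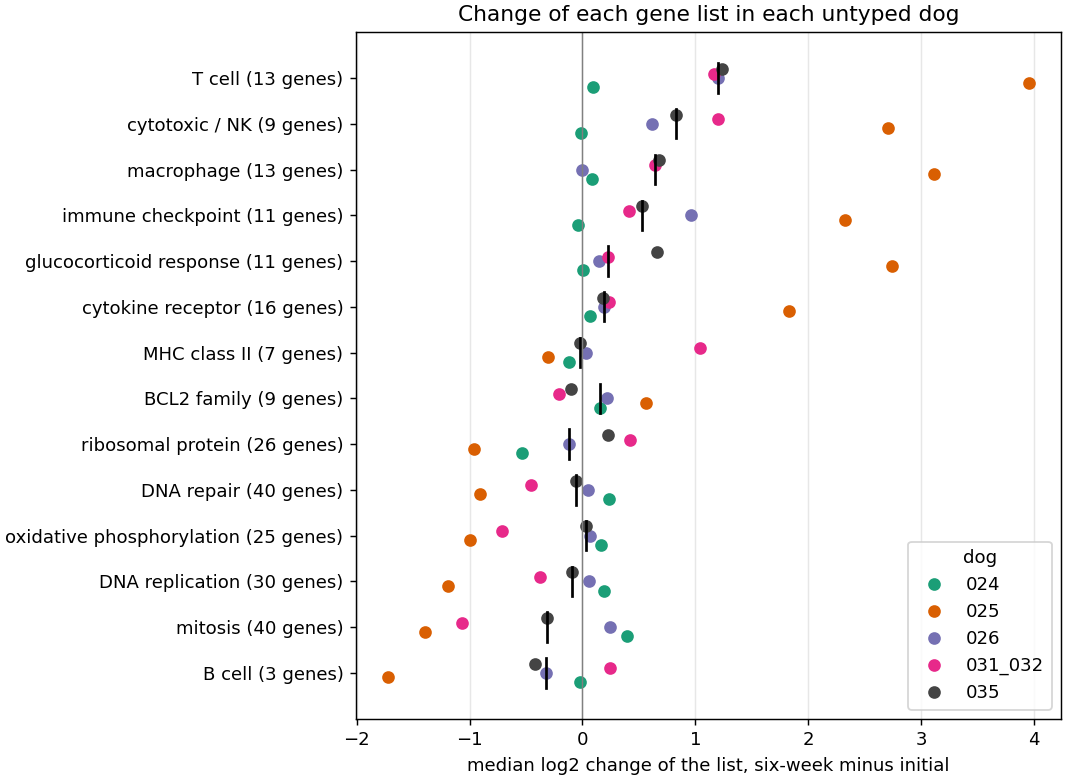
Median log2 change (six-week minus initial) of 14 gene lists in each of the 5 untyped dogs, with the number of genes tested in each list and a black bar at the median of the 5 dogs. Dog 025 lies farthest to the right for T-cell genes (3.95), while the mitosis list lies at 0.39 and 0.24 in dogs 024 and 026 and at -1.40 and -1.07 in dogs 025 and 031_032.

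Immune checkpoint genes had a median log2 change of 0.84 over 11 tested genes, with -0.04, 2.32, 0.96, 0.41 and 0.53 in the single dogs. IDO1, ICOS, TIGIT and CD27 were higher at an unadjusted p under 0.05, beside 4.3% of all genes tested. ICOS is also in the T-cell list and IDO1 in the interferon response list. For 3 of the 11 the initial mean was 1 FPKM or less, which favors a positive sign. BTLA, an inhibitory receptor that B cells carry as well, was the most abundant member at 69.4, 106, 66.4, 45.1 and 163 FPKM before and 83.4, 39.9, 55.2, 56.5 and 151 FPKM after, with -0.24 ± 0.26 (SE) on the log2 scale. Without dog 025 the median of the checkpoint list was 0.29 and that of the cytokine receptor list 0.11. IL2RA, the alpha chain of the IL-2 receptor, was higher in dogs 025 and 031_032 and lower in the other 3. Cytokine receptor genes had a median of 0.40 over 16 genes. Of these, IL7R, IL2RB and IL18R1 were higher at an unadjusted p under 0.05, beside 4.3% of all genes tested. For 4 of the 16 the initial mean was 1 FPKM or less, which favors a positive sign. IL7R is also in the T-cell list and IL2RB in the cytotoxic list. IL6ST, the shared chain gp130, had a log2 change of 0.33 ± 0.27 (SE), and IL13RA1 was higher in dog 025 (2.04) and lower in the other 4 (-1.27 to -0.16).

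Chemokine genes had a median of 0.44 over 6 genes (0.21 without dog 025). For 1 of the 6 the initial mean was 1 FPKM or less, which favors a positive sign. CXCL10, an interferon-induced chemokine that draws T cells, was at 1.37, 3.22, 1.69, 62.8 and 6.91 FPKM and then at 9.87, 7.65, 5.75, 12.8 and 35.3 FPKM; it was higher in 4 dogs by 1.04 to 2.20 log2 units and lower in dog 031_032 by 2.21. CCR6, a receptor of B cells and some T cells, had a log2 change of -0.15, -2.44, 0.03, -0.34 and -0.24 in the 5 dogs. The interferon response list had a median of 0.17 over 9 genes (0.07 without dog 025). Of these, 2 were higher at an unadjusted p under 0.05, beside 4.3% of all genes tested, and none was lower. TRIM22, an antiviral protein, was at 54.9, 591, 216, 415 and 167 FPKM before and 60.2, 1719, 200.4, 321 and 368 FPKM after, and SAMD9L was lower in 4 of 5 dogs (log2 change -0.31 ± 0.19, SE).

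MHC class II genes present antigen on B cells and macrophages, and here dog 031_032 differed from the rest. The median over 7 genes was 0.15 (0.32 without dog 025), with -0.12, -0.31, 0.03, 1.04 and -0.03 in the single dogs. DLA-DRA, the class II alpha chain, was at 1274, 2871, 1592, 798 and 1737 FPKM and then at 1089.7, 1735, 1555, 2271 and 2067 FPKM; dog 031_032 went from the lowest initial to the highest six-week value, and without it the log2 change was -0.18. DLA-DQA1 had 0.11, -0.77, 0.30, 1.04 and 0.13 in the 5 dogs, and CTSS, the protease that trims the class II invariant chain, was lower in 4 of 5. In the MHC class I list DLA-79 was higher in all 5 dogs (log2 change 0.99 ± 0.30, SE; unadjusted p = 0.0135, limma), at 1.75, 26.8, 5.07, 3.36 and 34.8 FPKM before and 2.04, 58.3, 14.6, 18 and 40.5 FPKM after; genes of this family are similar in sequence, so reads may be split among them. B2M, the light chain of class I, had 0.18 ± 0.20, and the chaperone CALR -0.26 ± 0.15 (SE).

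B-cell genes were lower in dog 025 and differed less between timepoints in the other nodes. PAX5 was at 18.6, 9.14, 16.1, 37.1 and 16.4 FPKM at 6 weeks, which was lower than at the start in dogs 025, 026 and 035 and higher in dog 031_032. CD22, an inhibitory co-receptor of the B-cell receptor, was at 81, 84.7, 74.6, 109 and 46.3 FPKM and then at 79.5, 25, 73.7, 129 and 27.4 FPKM. POU2AF1, a B-cell transcriptional coactivator, had -0.11, -1.44, -0.32, -0.13 and 0.08 on the log2 scale in the 5 dogs. The median of the 3 genes was -0.45 with no member at an unadjusted p under 0.05, and -0.12 without dog 025. Of 9 B-cell receptor signaling genes 8 had a negative log2 change, and the median was -0.21 (-0.05 without dog 025). BTK, the kinase downstream of that receptor, was at 138, 187, 106, 101 and 164 FPKM and then at 159.5, 45, 83.1, 87.9 and 143 FPKM. PTPN6 had -0.15 ± 0.21 and PRKCB 0.05 ± 0.21 (SE).

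Mitosis genes differed in direction between dogs. Of 40 genes, 40 were higher at 6 weeks in dog 024 and 37 in dog 026, while 0 were higher in dogs 025 and 031_032 and 2 in dog 035. The medians of the dogs were 0.39, -1.40, 0.24, -1.07 and -0.31, and the mean change was negative for 39 of the 40 genes, with a list median of -0.46 and no member at an unadjusted p under 0.05 (limma). Members of the list share these libraries and are not replicates. TOP2A, the topoisomerase that doxorubicin targets and a marker of dividing cells, was at 232, 194, 157, 239 and 330.0 FPKM before treatment and at 325, 41.9, 189.5, 81.1 and 264 FPKM at 6 weeks. SMC4, a condensin subunit, had 0.26, -0.52, 0.10, -0.57 and -0.19 and CENPN, a kinetochore protein, 0.40, -1.39, -0.64, -0.90 and -0.01 on the log2 scale. Without dog 024, in which all 40 were higher, 7 members were lower at an unadjusted p under 0.05 (0.947% of all genes in that fit). Leaving out any other single dog gave 0 such members. Without dog 025 the list median was -0.20.

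DNA replication genes followed a like order of dogs. Of 30 genes, 26 were higher in dog 024 and 18 in dog 026, against 1 in dog 025, 2 in dog 031_032 and 9 in dog 035. The list median was -0.31 (-0.11 without dog 025), and no member was at an unadjusted p under 0.05. In all 5 dogs 2 members were lower, beside 1.21% of all genes tested. MCM2, a subunit of the replicative helicase, was one of these, at 23.6, 18.4, 20.8, 16.5 and 28.4 FPKM and then at 21.9, 8.92, 17.9, 12.6 and 22.9 FPKM (log2 change -0.39 ± 0.17, SE). PCNA, the sliding clamp, had 0.14, -1.37, 0.11, -0.78 and -0.10 and MCM6 0.17, -1.59, -0.05, -0.59 and 0.05 in the 5 dogs. DNA repair genes had a median of -0.23 over 40 genes (-0.07 without dog 025) and 33, 4, 24, 6 and 18 members higher in the 5 dogs. XRCC2, RAD50 and H2AX, which act in double-strand break repair, had log2 changes of -0.38 ± 0.20, -0.21 ± 0.16 and -0.21 ± 0.16 (SE). Cyclin and CDK genes had a median of -0.16 (-0.08 without dog 025), with 14, 2, 14, 1 and 2 of 15 members higher.

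Among 6 genes tied to the action of the drugs, only ABCB1 was higher in all 5 dogs. The initial mean was 0.776 FPKM for ABCB1 and 0.990 FPKM for ABCG2. Both thus passed the filter through their six-week values, which favors a positive sign. ABCG2, another efflux pump for doxorubicin, was at 0.785, 1.63, 1.58, 0.891 and 0.0605 FPKM before treatment and 0.416, 4.84, 1.91, 2.5 and 0.264 FPKM at 6 weeks, higher in 4 dogs and lower in dog 024 (log2 change 0.43 ± 0.24, SE). Of 10 ABC transporter genes with a symbol 6 were tested, and 2 of these had an initial mean of 1 FPKM or less. ABCB1 alone of the 6 was at an unadjusted p under 0.05. The most abundant, TAP1, the peptide transporter of class I presentation, and ABCC3 had log2 changes of 0.17 ± 0.17 and 0.09 ± 0.15 (SE). MKI67, the proliferation antigen Ki-67, was at 97.1, 58.8, 55.1, 118 and 212 FPKM and then at 146, 47.7, 66.5, 76.3 and 99 FPKM, lower in dogs 025, 031_032 and 035. SLC29A1, a nucleoside transporter, was the most abundant gene of the drug target list at 742, 685, 794, 805 and 639 FPKM and 697, 272, 757, 662 and 639.9 FPKM, and dog 025 had the largest difference (-1.33 on the log2 scale). That list had a median of -0.02 over 6 genes (-0.01 without dog 025) and no member at an unadjusted p under 0.05.

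NR3C1, the glucocorticoid receptor through which prednisone acts, was at 4.77, 4.15, 6.91, 9.03 and 15.9 FPKM before and 4.42, 11.2, 7.56, 7.88 and 12.5 FPKM after; it was higher in dog 025 by 1.24 log2 units and within 0.32 of the start in the other 4. MYC, the growth-promoting transcription factor, had -0.10, -0.14, 0.15, 0.40 and 0.45 on the log2 scale in the 5 dogs. The log2 changes were 0.16 ± 0.25 for NR3C1 and 0.15 ± 0.16 for MYC (SE). That of NR3C1 was -0.12 without dog 025.

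**Figure D4:**
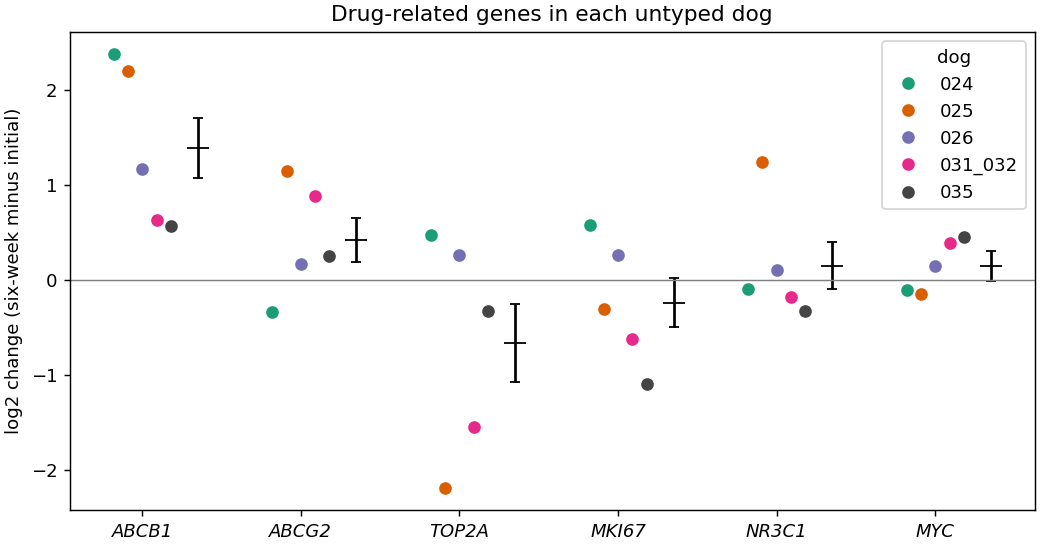
Log2 change (six-week minus initial) of 6 drug-related genes in each untyped dog, with the fitted change and its SE as a black bar. ABCB1 lies above 0 in all 5 dogs (0.57 to 2.38), while TOP2A ranges from -2.19 in dog 025 to 0.48 in dog 024.

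Glucocorticoid-responsive genes had a median log2 change of 0.78 over 11 genes, all with a positive value, and 0.01, 2.74, 0.15, 0.23 and 0.66 in the single dogs. For 1 of the 11 the initial mean was 1 FPKM or less, which favors a positive sign. IL7R and NFKBIA were higher at an unadjusted p under 0.05, beside 4.3% of all genes tested. IL7R is also in the T-cell and cytokine receptor lists and NFKBIA in the NF-κB list, so these lists are not independent. NFKBIA, which encodes the inhibitor of NF-κB and is induced by both NF-κB and glucocorticoids, was higher in all 5 dogs, at 52.1, 93, 94.5, 66.8 and 42.9 FPKM before and 68.4, 104.5, 129, 80.4 and 66.5 FPKM after (log2 change 0.38 ± 0.14, SE). FKBP5, a chaperone that the glucocorticoid receptor induces, was at 144, 77.4, 121, 158 and 132 FPKM and then at 169.7, 313, 100.2, 87.5 and 287 FPKM, higher in 3 dogs and lower in dogs 026 and 031_032. Without dog 025 the list median was 0.26, with 2 of 10 members higher at an unadjusted p under 0.05, beside 2.77% of all genes in that fit.

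The NF-κB list had a median of 0.21 over 11 genes (0.14 without dog 025), of which 10 had a positive value. In all 5 dogs 4 were higher (5.64% of all genes tested were), and 2 were higher at an unadjusted p under 0.05 (4.3%). TRAF1, an adaptor of TNF receptors and an NF-κB target, was at 0.408, 1.12, 0.909, 0.572 and 2.11 FPKM and then at 1.26, 6.78, 1.61, 3.31 and 2.3 FPKM (log2 change 0.91 ± 0.28, SE). CYLD, a deubiquitinase that restrains the pathway, had -0.09 ± 0.14. The separate p53 target list had a median of -0.08 over 7 genes (-0.05 without dog 025). In that list RRM2B, a ribonucleotide reductase subunit, had -0.32 ± 0.19, CCNG1 -0.29 ± 0.23 and MDM2, a ubiquitin ligase, -0.08 ± 0.18 (SE). The apoptosis list around BCL2 had a median of 0.12 over 9 genes (0.03 without dog 025); BCL2A1 and MCL1, which protect cells from death, had 0.39 ± 0.19 and 0.09 ± 0.17, and the death protease CASP8 -0.28 ± 0.18 (SE).

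Ribosomal protein genes differed between dogs as blocks: of 26 genes, 0 were higher in dog 024 and 3 in dog 025, against 5 in dog 026, 25 in dog 031_032 and 26 in dog 035, with a median of -0.19. Nuclear genes of oxidative phosphorylation had a median of -0.28 over 25 genes, all with a negative value, and 21, 0, 18, 1 and 14 members higher in the single dogs. Proteasome genes had -0.16 over 14 genes with 13, 0, 11, 0 and 11 members higher. Mitochondrially encoded genes had -0.22 over 8 genes, MYC and nucleolar genes -0.20 over 15, and glycolysis and HIF genes -0.13 over 10, none of them with a member at an unadjusted p under 0.05. Without dog 025 the medians were -0.01 for ribosomal proteins, -0.12 for oxidative phosphorylation, -0.02 for the proteasome and -0.11 for mitochondrially encoded genes, and they turned positive for MYC and nucleolar genes (0.03) and for glycolysis and HIF genes (0.04).

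In the complement and phagocytosis list (median 0.45 over 10 genes, and -0.06 without dog 025) CD55, which shields cells from complement, was higher in all 5 dogs (log2 change 0.61 ± 0.23, SE), while APOE had -0.29 ± 0.30 and CTSB -0.07 ± 0.26. The remaining lists had medians of 0.46 for dendritic cells (4 genes), 0.32 for plasma cells (6), 0.46 for stroma and endothelium (6), 0.61 for erythrocytes and platelets (1), 0.41 for epithelium and fat (2), 0.51 for receptor tyrosine kinases (4), 0.16 for PI3K, AKT and MTOR (11), -0.02 for RAS and MAPK (11), 0.14 for TGF-β (8) and -0.24 for immediate early and stress genes (5). Among these 10 lists 6 members were higher at an unadjusted p under 0.05 and none was lower, beside 4.3% and 0.686% of all genes tested. The initial mean was 1 FPKM or less for 2 of 6 stroma and endothelium genes, 2 of 4 receptor tyrosine kinases and 1 of 2 epithelium and fat genes. It was so for 1 gene each of the PI3K, TGF-β and complement lists. Such genes passed the filter through their six-week values, which favors a positive sign. Without dog 025 the medians were 0.15 for dendritic cells, 0.02 for plasma cells, 0.02 for stroma and endothelium, 0.06 for erythrocytes and platelets, -0.04 for epithelium and fat, 0.05 for receptor tyrosine kinases, 0.02 for PI3K, AKT and MTOR, 0.08 for RAS and MAPK, 0.04 for TGF-β and -0.01 for immediate early and stress genes. The filter then left 4 genes for stroma and endothelium, 2 for erythrocytes and platelets and 1 for epithelium and fat. It left 2 for receptor tyrosine kinases, 10 for PI3K, AKT and MTOR and 7 for TGF-β, so these medians are not over the same genes as above. The value of -0.02 for RAS and MAPK is the median over genes of the mean change of the 5 dogs; the median over genes was positive in each single dog, and the value was 0.01 to 0.08 when any 1 dog was left out.

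The change in the untyped dogs was compared with that in the dogs of known immunophenotype by an interaction test over all 30 libraries. Against the 7 B-cell labelled dogs no gene of 14257 passed at an adjusted p under 0.05 (0%, smallest adjusted p 1, limma), and 245 (1.72%) were at an unadjusted p under 0.05, 190 of them with the higher change in the untyped dogs. Against the 3 T-cell labelled dogs no gene passed either (0%, smallest adjusted p 0.549, limma), and 1287 (9.03%) were at an unadjusted p under 0.05, 847 with the higher change in the untyped dogs. These tests share the 10 untyped libraries. The marker levels of 1 dog labelled T-cell (038) were those of high B-cell genes (5.88) and low T-cell genes (2.35) before treatment, and dog 029, labelled B-cell, had T-cell genes at 5.67. Without dog 029, 174 genes were at an unadjusted p under 0.05 against the B-cell label and 0 passed, and without dog 038, 1761 were at an unadjusted p under 0.05 against the T-cell label and 0 passed (limma).

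The comparison with the T-cell label depended on single dogs. Without the T-cell labelled dog 028, 51 of 14282 genes passed at an adjusted p under 0.05 (limma), 22 with a higher and 29 with a lower change in the untyped dogs; without dog 036 none passed, and 484 were at an unadjusted p under 0.05. The 7 of the 51 with a symbol were DNAJC12, GALNT10 and RASGRP1 with a higher and ELL2, RBM47, EFEMP1 and MYCT1 with a lower change. ELL2, an elongation factor of antibody-secreting cells, differed by -2.05 ± 0.34 (SE; adjusted p = 0.017, limma) without dog 028 and by -1.35 with it. These alternatives were chosen after seeing the data. Without the untyped dog 025, 1 gene without a symbol passed against the T-cell labelled dogs.

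The dogs of the 3 labels overlapped in the T-cell list. Its median change was 0.09 to 3.95 in the 5 untyped, -0.55 to 2.54 in the 7 B-cell and -1.33 to 1.32 in the 3 T-cell labelled dogs. Of 13 members 0 and 2 were at an unadjusted p under 0.05 in the respective interaction, beside 1.72% and 9.03% of all genes. For the mitosis list the range was -1.40 to 0.39, -2.05 to 0.24 and -1.07 to -0.17, and no member was at an unadjusted p under 0.05 in either. TNIK had a change of 2.37 in the untyped, 0.62 in the B-cell and 0.12 in the T-cell labelled dogs, with a difference of 1.76 ± 0.68 against the B-cell and 2.26 ± 0.84 against the T-cell labelled dogs (SE; adjusted p 1 and 0.549, limma). ABCB1 had 1.39, 0.55 and 1.31, and IDO1 1.48, 1.08 and 1.15, and neither differed at an unadjusted p under 0.05.

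The named genes with the smallest interaction p against the B-cell labelled dogs were PNP, PKIB, SEPTIN10, TAGLN2 and TRAF1 with a higher and OMG, COL6A6, KLHDC9, PRELID3A and CZIB with a lower change in the untyped dogs. PNP, a purine salvage enzyme that T cells need, had a change of 0.80 in the untyped and -0.27 in the B-cell labelled dogs, a difference of 1.07 ± 0.31 (SE). PKIB, an inhibitor of protein kinase A, had 2.12 and -0.38, and TRAF1 0.91 and -0.11. Against the T-cell labelled dogs RIOX2, TAF4, RBM45, RASGRP1 and SSH2 had a higher and RBM47, APOE, CTSS, TXNDC16 and FKBP11 a lower change in the untyped dogs. RASGRP1, which activates RAS below the T-cell receptor, had -0.07 in the untyped and -1.47 in the T-cell labelled dogs. APOE, a lipid carrier that macrophages secrete, had -0.29 and 1.998, a difference of -2.29 ± 0.58 (SE). Over these 20 genes the absolute difference was 0.41 to 2.50 log2 units, and the adjusted p was 1 or 0.549 (limma).

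**Figure D5:**
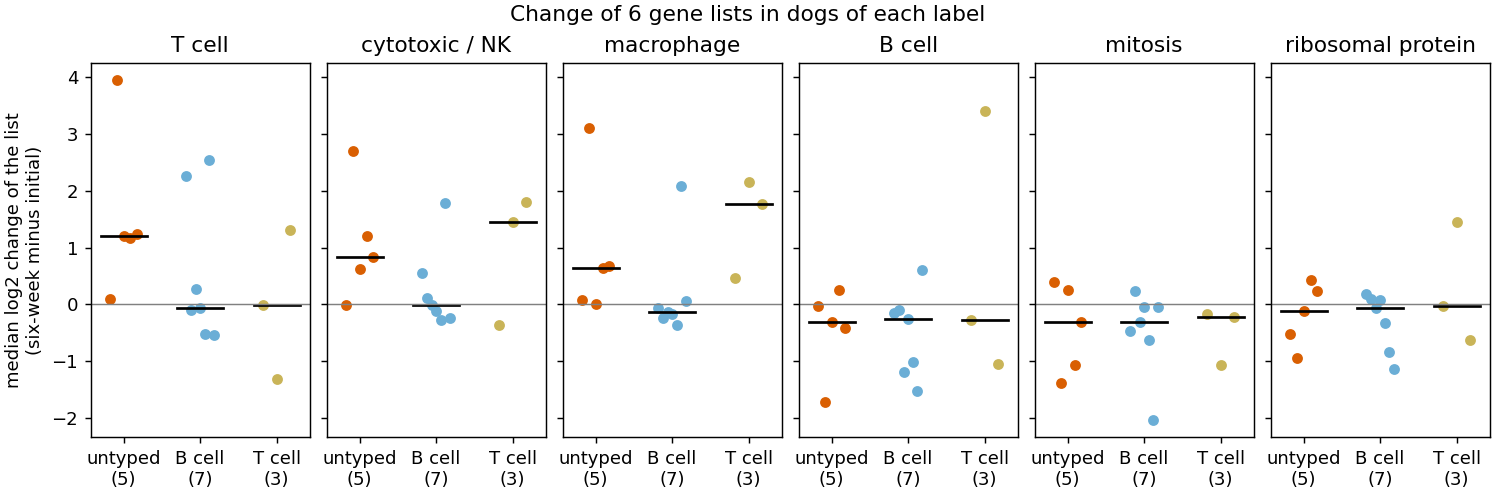
Median log2 change of 6 gene lists in each dog, grouped by immunophenotype label (5 untyped, 7 B-cell, 3 T-cell), with a black bar at the median of the dogs. The groups overlap in these 6 lists; for T-cell genes the untyped dogs lie at 0.09 to 3.95.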

How the data were processed

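RNA from fine needle aspirates of lymph nodes was sequenced after poly A selection. The submitters' processing notes name HISAT2 2.1.0, StringTie 1.3.3 and the genome build CanFam3.1. The authors deposited FPKM per gene (normalised for transcript length and depth), which was the value tested, and raw gene counts. The deposited counts served for library totals and for an edgeR test in 3 dogs, since those of dogs 024 and 035 did not rank genes as the FPKM did. Genes with a mean FPKM above 1 over the 10 untyped libraries were tested on log2(FPKM+1) (pseudocount 1) with limma 3.58.1 (R 4.3.3) and the dog as a block, with Benjamini-Hochberg adjustment over 13555 genes. Fold changes on this scale understate those of low genes. Differences between immunophenotypes were interaction terms in a fit of all 30 libraries. edgeR 4.0.16 used TMM factors and genes with a mean count above 50. No value column was without a sample.

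Pairing came from the dog number. The deviations of the 2 libraries of a dog correlated at 0.529, 0.0795, 0.611, 0.419 and 0.702. Each initial library correlated best with its own six-week partner, in dog 025 by little (0.0136 for the next best). Dog 031_032 was paired by exclusion, not by a shared number. Symbols were taken from pairs of ID and name in the study's supplementary tables, and 5086 of 32704 IDs had one. Genes named first were the 10 with the smallest p among those with a symbol, at least 1 log2 unit of change and the same direction in all 5 dogs; list members named were up to 3 per list, by p or level, and some genes that met these rules are not reported here. Most list members with a symbol are genes that the study singled out in these samples. The members and lists were chosen with earlier results of these data known. Scripts were tested on simulated data. Alternatives covered the pseudocount, the filter, TPM, quantile normalization, a trended and robust fit, the dog block, edgeR and leaving out dogs. Python 3.11.15 and matplotlib 3.10.9 drew the figures.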

Additional observations from a re-analysis of the deposited data

Results flagged for a closer look

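In groups of 5 dogs, 7 of 70 named genes and 11 of 39 lists had 1 dog far from the other 4 (Dixon's criterion, which chance meets in about 1 of 20 groups). Dog 025 stood apart for NR3C1 (log2 change 1.24), POU2AF1 (-1.44), BTK (-2.03), CCR6 (-2.44), SLC29A1 (-1.33) and RRM2B (-1.06). Dog 031_032 stood apart for CXCL10 (-2.21), which was higher in the other 4 dogs.

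Dog 025 also stood apart in the list medians of macrophages and monocytes (3.12), neutrophils (4.32), stroma and endothelium (1.804), glucocorticoid response (2.74), MHC class I (0.74), chemokines (1.25), cytokine receptors (1.83), complement and phagocytosis (1.88), TGF-β (0.95) and receptor tyrosine kinases (1.90). Dog 031_032 stood apart in the MHC class II list (1.04). Among 7 measures per library, the number of genes that differed by at least 1 log2 unit was far higher in dog 025 (4000, against 453 to 1272). These flags share the same libraries.

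All 39 lists and 70 named genes were searched for opposite directions in every dog of the untyped and of either labelled group. Only the RAS and MAPK list met this. It had a positive median in each of the 5 untyped dogs (0.11 at the middle dog) and a negative one in each of the 3 T-cell labelled dogs (-0.28 to -0.04). The difference of medians was not tested. In the interaction 3 of 12 members were at an unadjusted p under 0.05 (limma), beside 9.03% of all genes, and 0 passed after adjustment. In untyped dogs 026 and 035 the median was close to 0 (0.007 and 0.011). The B-cell labelled dogs lay at -0.50 to 0.36, and all but dog 033 were positive as well.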

How the results depend on the processing

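The count of 0 genes at an adjusted p under 0.05 in the untyped dogs held under every alternative fitted with limma, and edgeR on the counts of 3 dogs called 2. Genes at an unadjusted p under 0.05, 676 as reported, were 3019 with a mean FPKM above 0.1 as the filter (27523 genes tested), 231 with one above 5 (8385 tested), and 481 to 901 when 1 dog was left out. Without the dog as a block (no pairing) the count was 324, and no call changed in the interaction tests. Against the T-cell labelled dogs, 0 to 51 genes passed when 1 dog was left out, with 1 without dog 025 and 51 without dog 028. In the cytotoxic list 3 to 8 members were at an unadjusted p under 0.05 when 1 dog was left out (7 as reported). The macrophage list had 2 to 6 (4 as reported), and 2 after quantile normalization. The mitosis list had 0 to 7 (0 as reported), and 1 after quantile normalization. Apart from the numbers of genes and dogs these settings change, the cause was not tested.

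The 10 leading genes were chosen for a change of one direction in all 5 dogs, so their direction across settings was largely fixed by that choice and is not given as support. Over 70 named genes 1020 of 1038 values kept their direction, and 15 genes reversed in at least 1. Leaving out 1 dog gave a range across 0 for CD3D (-0.0377 to 0.42), NR3C1 (-0.12 to 0.27), C1QA (-0.11 to 0.89), PTPN6 (-0.30 to 0.0427), PRKCB (-0.10 to 0.18), BTLA (-0.37 to 0.0528), IL13RA1 (-0.64 to 0.19), MDM2 (-0.19 to 0.0562), MCL1 (-0.0281 to 0.21), DLA-DQA1 (-0.0563 to 0.40), DLA-DRA (-0.18 to 0.37), APOE (-0.47 to 0.0203) and CTSB (-0.27 to 0.20). With edgeR IL2RA had 0.0829 and IL13RA1 0.38, and after quantile normalization ABCC3 had -0.0678. The precision rests on 5 dogs. Leaving out dog 025 moved most list medians toward 0 and turned the sign of those for complement and phagocytosis, MYC and nucleolar genes, glycolysis and HIF, RAS and MAPK, and epithelium and fat. The filter was applied again in that fit, so the tested members of a list can differ too, and their part was not tested. For epithelium and fat 1 gene was left, against 2 with this dog.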
